A study of Rattus norvegicus with 4 samples.

Results

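The Notch receptor, ligand and HES/HEY genes were examined in cultured rat hippocampal neural progenitor cells, across all 4 arrays of a compound treatment experiment. The 10 genes were chosen by symbol (the receptors Notch1, Notch2 and Notch3, the ligands Dll1, Dll3 and Jag1, and the transcription factors Hes1, Hes5, Hes6 and Hey1), out of 14217 named genes on the array. All 10 symbols were found, on 12 probe sets, which are groups of short probes that read 1 transcript together. The cells were hippocampal progenitors of Fisher 344 rats, cultured with KHS101 at 5 uM, with KHS101 at 1.7 uM, with 1 uM retinoic acid together with forskolin, or with the solvent DMSO. KHS101 is a synthetic compound that the study's title describes as accelerating neuronal differentiation in the rat. The design names DMSO as the negative control and retinoic acid as the positive one, so the array with retinoic acid and forskolin is also called the positive control here. Forskolin, which raises cyclic AMP, appears only in the sample label, without a concentration. Per the labels' protocols, cells passaged at most 6 times were plated at 1000 per square centimetre and kept with compound for 4 days in a medium with N2 supplement, whereas fibroblast growth factor is named only for the expansion before that; the protocol covers several experiments, and 0.1% is the amount of DMSO it gives. Whether cells of several animals were pooled is not stated there.

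Each group was 1 array, so no difference below has a replicate check, no p-value was computed, and having so few arrays limits how precise any value is. The deposited values are log2 expression values. A floor of log2 = 5 was chosen, and values under it were raised to it. This kind of processing gives values without specific signal in that range. Some genes there still varied between arrays, such as Dcx from 2.70 to 4.51, so the floor is a cautious choice. A gene counted as measured in a comparison if 1 or both of the arrays compared lay above that level. A call means a log2 difference of 1 or more in size (2-fold), in either direction. Between 59.0% and 59.6% of named genes were above the floor on each array. For a scale of probe noise, genes with exactly 2 probe sets above the floor were used: the log2 differences of the 2 probe sets from DMSO lay a median of 0.15 to 0.18 apart, and 95% of such pairs lay within 0.74 for KHS101 at 5 uM, 0.58 at 1.7 uM and 0.64 for retinoic acid with forskolin. Both probe sets of a pair read the same RNA on the same array, so this scale holds no spread between cultures.

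Several progenitor, neuron and oligodendrocyte lineage markers were present, and most markers of several other cell types were not. Sox2 read between 13.57 and 14.01 on the 4 arrays and nestin (Nes) between 10.67 and 11.97, while Sox1 and Pax6 were below the floor on all 4. All 6 microglia markers and all 3 ependymal markers on the array were below the floor everywhere, as were 6 of 7 mural and 5 of 6 endothelial markers. The cultures also carried oligodendrocyte lineage transcripts, with Olig2 at 11.08 in DMSO. Of the 9 neuron markers 5 were above the floor on all 4 arrays, among them Map2 (12.46 to 12.79) and Tubb3 (8.85 to 9.98). The other 4 (Dcx, Rbfox3, Stmn2 and Snap25) were below it on all. Of the 6 astrocyte markers 5 were below it everywhere, while S100b read 13.15 to 14.21. Tubb3 and S100b were called higher with retinoic acid and forskolin, where 4.34% of all measured genes were higher. Against DMSO neither list had a call with KHS101. The 3' minus 5' log2 difference of the beta-actin control, a measure of RNA integrity, was 1.26 in DMSO, 1.40 at 1.7 uM KHS101, 1.54 at 5 uM and 1.37 in the positive control, and that of the hexokinase control was 0.686, 0.802, 0.965 and 0.657 in the same order. The hexokinase values are highest where Notch1 and Adam10, described below, are lowest, in the reverse order of the arrays. The part of RNA integrity in the differences below was not tested.

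Notch signalling passes between touching cells. A Delta or Jagged ligand on one cell binds a Notch receptor on its neighbour, the metalloprotease ADAM10 and then the gamma-secretase complex cut the receptor, and the freed intracellular domain enters the nucleus, where it binds the DNA-binding protein RBPJ and a Mastermind co-activator. In neural progenitors the best known targets are the HES and HEY genes, whose products are repressors that hold down proneural genes and so delay neuronal differentiation. HES1 protein also represses its own gene, through sequences known as N boxes.

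The DNA just before the start of these genes is shown for the 3 members whose window holds the core letters that RBPJ binds. Binding to these windows was not measured. The windows are the 250 bases before the RefSeq start in assembly GRCr8, each on the gene's own strand, 5′ to 3′. Capitals mark TGGGAA, or TTCCCA where the match lies on the opposite strand. The window of Hes1 lies at chr11:84213046-84213295 on the minus strand, that of Hes5 at chr5:170804327-170804576 on the plus strand and that of Dll1 at chr1:64993275-64993524 on the minus strand.
Hes1: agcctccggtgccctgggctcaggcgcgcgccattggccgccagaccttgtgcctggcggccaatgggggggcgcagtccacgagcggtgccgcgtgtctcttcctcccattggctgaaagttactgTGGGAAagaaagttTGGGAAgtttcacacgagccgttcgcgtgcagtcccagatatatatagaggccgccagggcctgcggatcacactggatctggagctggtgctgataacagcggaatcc
Hes5: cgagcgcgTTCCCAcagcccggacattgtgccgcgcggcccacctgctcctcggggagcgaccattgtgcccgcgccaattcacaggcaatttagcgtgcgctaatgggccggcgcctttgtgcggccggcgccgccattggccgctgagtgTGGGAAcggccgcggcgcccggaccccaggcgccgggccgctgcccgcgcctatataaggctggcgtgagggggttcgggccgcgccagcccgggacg
Dll1: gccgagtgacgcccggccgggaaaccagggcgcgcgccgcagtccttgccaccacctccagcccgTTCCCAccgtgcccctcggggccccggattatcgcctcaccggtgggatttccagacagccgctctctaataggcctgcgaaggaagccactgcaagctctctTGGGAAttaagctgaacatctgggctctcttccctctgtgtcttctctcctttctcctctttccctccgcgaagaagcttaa

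Counting back from the start, with the base before it as -1, the Hes1 matches begin at -123 and -109, on the same strand, those of Hes5 at -242 and -98, and those of Dll1 at -185 and -82. Both strands were searched. Of the 9 members with a promoter entry (Hey1 has none), 3 held the RBPJ core, against 22.1% of all 33469 windows of this length. The N box, searched as CACNAG, was in 4 of the 9 (37.2% of all windows) and matched at 4 places in each of Hes1 and Notch1, of which a pair in Notch1 overlap; it shares no match with the RBPJ core. The shorter core of the cyclic AMP response element, TGACG, was in 3 of the 9 (18.2% of all windows), namely Notch3, Dll1 and Jag1. These matches describe letters in a short window.

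Hes1 was higher with KHS101 and Notch1 was lower, whereas retinoic acid with forskolin left both within 1.24-fold of DMSO. In its place that treatment had lower Jag1 and higher Hey1. Of the 10 members, 6 were above the floor on all 4 arrays: Notch1, Dll1, Jag1, Hes1, Hes6 and Hey1. Among these 6, KHS101 at 5 uM had 1 higher (Hes1; 6.16% of all 8543 measured genes were higher) and 1 lower (Notch1; 8.10% of all were lower). At 1.7 uM 1 was higher (Hes1; 4.36% of all genes) and 0 were lower (4.27% of all). With retinoic acid and forskolin 1 was higher (Hey1; 4.34% of all) and 1 lower (Jag1; 3.15% of all). The median log2 difference of the 6 from DMSO was -0.45 at 5 uM, 0.14 at 1.7 uM and 0.09 in the positive control, beside 0.00, -0.01 and -0.03 over all measured genes. A count of 1 among 6 genes is not read as a result about the group, so the members are described singly. The 3 comparisons with DMSO share its array.

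**Figure D1:**
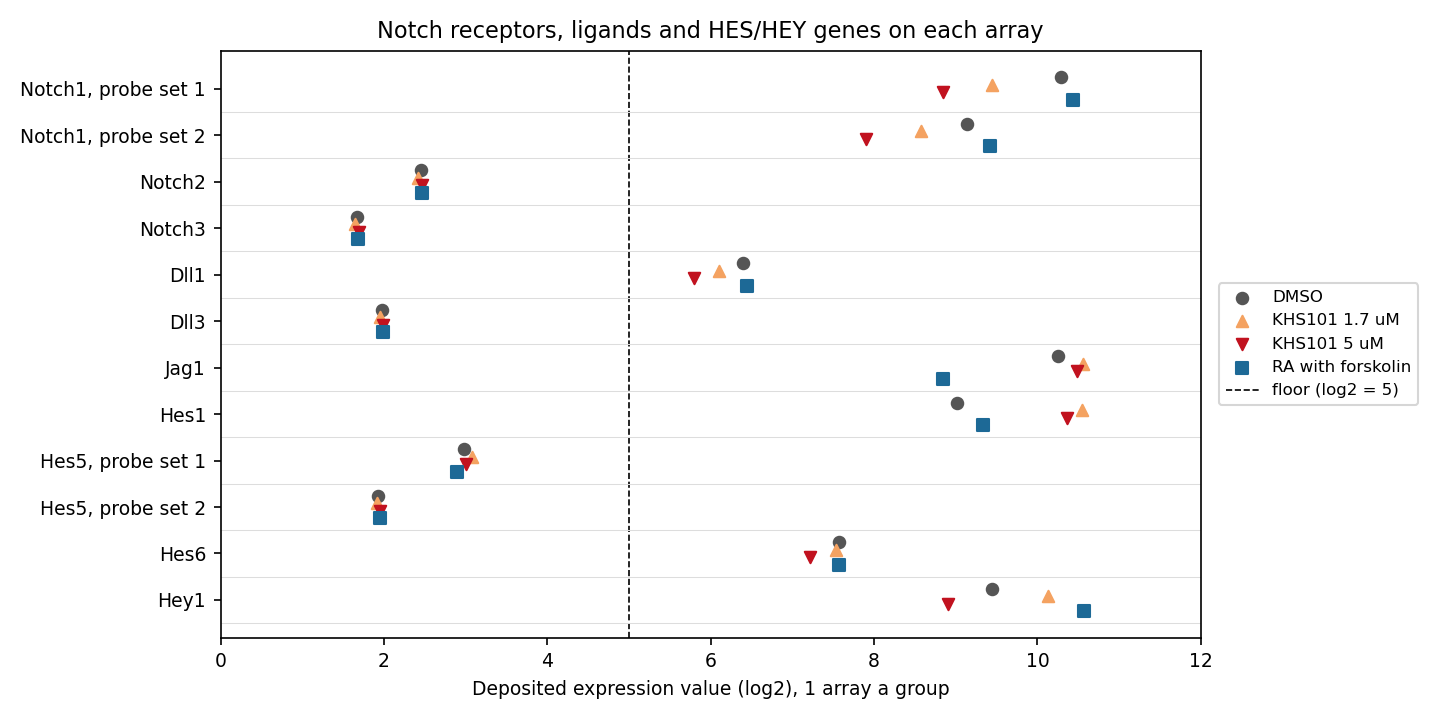
Deposited log2 expression value (x axis) of each of the 12 probe sets of the 10 genes (y axis), with 1 symbol for each of the 4 arrays; the dashed line is the floor at log2 = 5. Notch2, Notch3, Dll3 and both probe sets of Hes5 sit left of the floor on all 4 arrays, and the other 7 probe sets sit right of it.

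Among the receptors, Notch1 was the member with signal. Notch1 encodes the main receptor of the pathway in neural progenitors. Its first probe set (1371491_at) read 10.29 in DMSO, 9.45 with KHS101 at 1.7 uM, 8.84 at 5 uM and 10.44 in the positive control. The KHS101 arrays were thus the low ones, the higher concentration lower still, and the DMSO and retinoic acid arrays lay close together. Notch1 was 2.74-fold lower than in DMSO at 5 uM (log2 difference -1.45) and 1.79-fold lower at 1.7 uM (-0.84, under the 2-fold line), and the step from 1.7 to 5 uM was -0.61. At 5 uM 356 of 8543 measured genes were as far below DMSO or further.

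The second Notch1 probe set (1390426_at) had the same order of arrays. It read 9.14 in DMSO, 8.57 at 1.7 uM, 7.90 at 5 uM and 9.42 in the positive control, so its differences from DMSO were -1.24 at 5 uM, -0.58 at 1.7 uM and 0.28. Each differed from that of the first probe set by less than the 95% limit for pairs of probe sets. The retinoic acid and forskolin difference, 0.15 on the first probe set and 0.28 on the second, was smaller than that limit on both. The limit is a scale of probe noise, here and below, and does not show that a smaller difference is 0.

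Notch2 and Notch3, the other receptors of the list, were below the floor on all arrays. Notch2 read between 2.42 and 2.47 and Notch3 between 1.65 and 1.69, flat values that a probe set without specific signal gives. Each rests on 1 probe set, so a transcript that the probes miss would look alike. Notch3 is also a known marker of mural cells. Of the 7 mural markers on the array, Pdgfrb, Rgs5, Kcnj8, Cspg4, Des and Abcc9 were below the floor on all 4 arrays. The other, Acta2, was above it on all 4 and read between 6.18 and 6.39.

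The order of the arrays for Notch1 was also that of the oligodendrocyte lineage markers. Averaged over the 7 markers on the array, with values raised to the floor, their log2 level was 10.41 in DMSO, 9.85 at 1.7 uM, 9.44 at 5 uM and 10.71 in the positive control. At 5 uM 4 of the 5 measured markers were called lower (Olig1, Olig2, Pdgfra and Mbp) and 0 higher, with Olig2 at 9.50. Of all measured genes 8.10% were lower and 6.16% higher in that comparison. Cspg4 was below the floor on all arrays. The order was not particular to that lineage. Of the 6 measured progenitor markers, Fabp7 and Slc1a3 had it as well, and Sox2, Nes, Vim and Hopx did not. Fabp7 read 14.59 in DMSO, 13.39 at 1.7 uM, 12.48 at 5 uM and 15.09 in the positive control. It was called lower than in DMSO at both KHS101 concentrations (log2 differences -1.21 and -2.11). The part of these markers in the Notch1 values was not tested. In cultures of mixed cells, fewer cells of a type and less RNA per cell cannot be told apart.

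Of the ligands, Jag1 differed with retinoic acid and forskolin and Dll1 showed smaller differences. Jag1 encodes Jagged1, a ligand found on progenitors and glia. It read 10.25 in DMSO, 10.56 with KHS101 at 1.7 uM, 10.49 at 5 uM and 8.85 in the positive control. The last array stood alone below the other 3, which lay within 0.31 of each other. Jag1 was 2.64-fold lower with retinoic acid and forskolin than in DMSO (log2 difference -1.40), and 58 of 8535 measured genes were as far below DMSO or further. With KHS101 its differences from DMSO were 0.24 at 5 uM and 0.31 at 1.7 uM, within the 95% limit for pairs of probe sets. It rests on 1 probe set (1368725_at). Of the 6 measured progenitor markers, Vim was called lower on the same array (-1.11 from DMSO), where 3.15% of all genes were lower. Of the 6, 0 were called higher (4.34% of all), and their median was -0.45. Nes differed by -0.69, while Fabp7 differed by 0.50. Hopx read 4.71 there, below the floor, so its difference of -0.73 is a bound and it was lower by at least that much. Averaged over the 8 progenitor markers on the array, with values raised to the floor, their log2 level was 9.99 in DMSO and 9.72 with retinoic acid and forskolin. Sox1 and Pax6 were below the floor on all arrays. Their part in the Jag1 value was not tested.

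Dll1 encodes Delta-like 1, the ligand that differentiating neuronal precursors display to their neighbours. It read 6.40 in DMSO, 6.10 at 1.7 uM KHS101, 5.79 at 5 uM and 6.44 in the positive control, near the floor throughout. Its arrays were in the same order as those of Notch1, but the difference from DMSO at 5 uM was -0.61, which is under 2-fold and within the 95% limit for pairs of probe sets. At 1.7 uM it was -0.30 and with retinoic acid and forskolin 0.04. Dll3, a divergent ligand that does not activate the receptor on a neighbouring cell, read between 1.95 and 1.99 and was below the floor on all arrays.

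Hes1, the repressor that sustains progenitors, was the member furthest above DMSO. It read 9.02 in DMSO, 10.55 with KHS101 at 1.7 uM, 10.36 at 5 uM and 9.33 in the positive control. Both KHS101 arrays were high and lay within 0.19 of each other, and the other arrays were low. Hes1 was 2.89-fold higher than in DMSO at 1.7 uM (log2 difference 1.53) and 2.54-fold higher at 5 uM (1.34). Of 8533 measured genes 161 were as far above DMSO or further at 1.7 uM, and 311 of 8543 were at 5 uM. With retinoic acid and forskolin it was 1.24-fold higher (0.31), which 1902 of 8535 genes reached. It rests on 1 probe set (1387036_at). The window before its start, with both RBPJ core matches, is printed above.

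Hey1, a HES-related repressor and Notch target, had a different profile. It read 9.45 in DMSO, 10.13 with KHS101 at 1.7 uM, 8.91 at 5 uM and 10.57 in the positive control. The KHS101 arrays lay on opposite sides of DMSO, and the retinoic acid array was the highest. Hey1 was 2.17-fold higher with retinoic acid and forskolin (log2 difference 1.12). At 1.7 uM KHS101 it differed from DMSO by 0.68 and at 5 uM by -0.54 on the log2 scale, both under 2-fold.

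Between the KHS101 concentrations Hey1 was the 1 member called: it was 2.33-fold lower at 5 than at 1.7 uM (log2 difference -1.22; 1.73% of all 8500 measured genes were lower and 0.812% higher, against 1 and 0 of the 6 members). In this step 80 of the 8500 genes were as far down or further, and no DMSO array enters it. All 6 members had a value at 5 uM below that at 1.7 uM, as did 4347 of all 8500 measured genes. The median difference of the 6 was -0.31, beside -0.01 for all genes. For this step 95% of pairs of probe sets lay within 0.57 of each other. Jag1 (-0.07), Hes1 (-0.19), Dll1 (-0.31) and Hes6 (-0.32) differed by less than that, and Notch1 by -0.61. With 6 genes this is not read as a result about the group. HEY genes are also active in endothelium. The endothelial receptor gene Kdr read 6.54 with retinoic acid and forskolin and below the floor on the other arrays, and 5 of 6 endothelial markers were below the floor on all 4. The part of Kdr-expressing cells in the Hey1 value was not tested.

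The list also holds Hes6 and Hes5. Hes6, a family member known to oppose HES1 and to favour neuronal differentiation, read 7.57 in DMSO, 7.54 at 1.7 uM KHS101, 7.21 at 5 uM and 7.57 in the positive control. Its largest difference from DMSO, -0.36 at 5 uM, was within the 95% limit for pairs of probe sets. Hes5, a principal Notch target of the embryonic brain, had 2 probe sets, and both were below the floor on all arrays, at 2.89 to 3.08 and at 1.91 to 1.95. Its promoter window holds as many RBPJ core matches as that of Hes1.

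**Figure D2:**
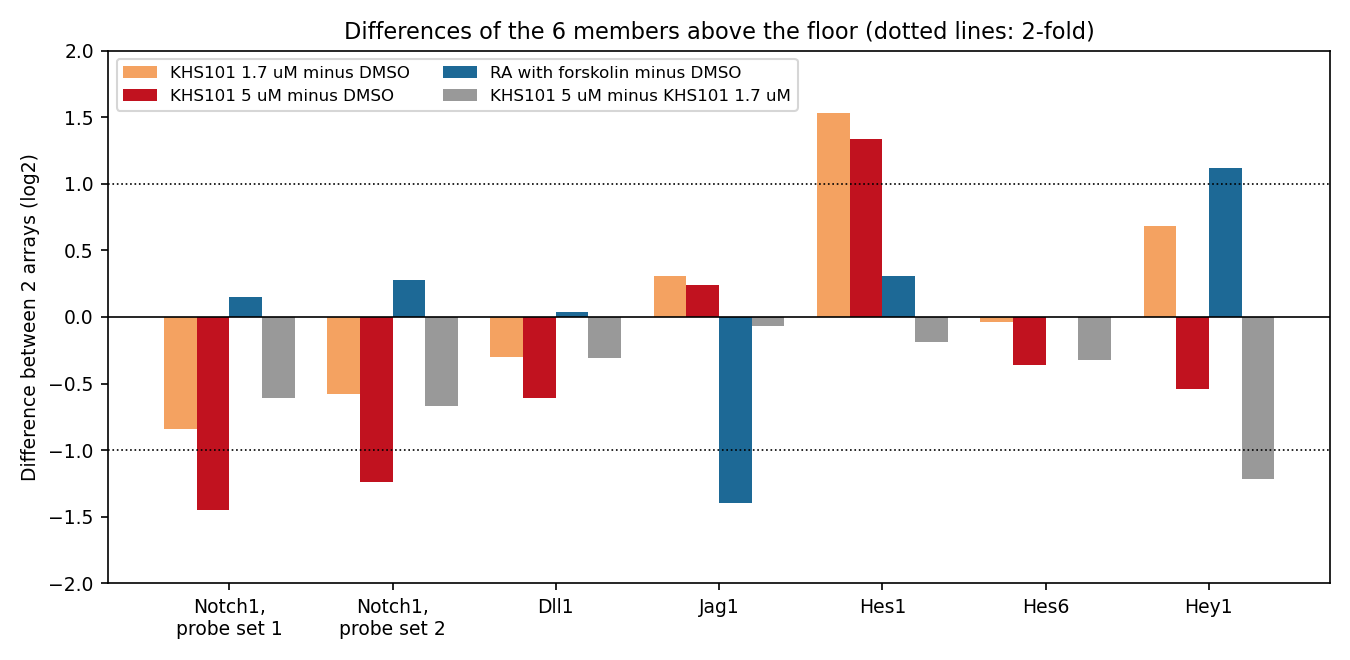
Log2 differences between 2 arrays (y axis) for the 7 probe sets of the 6 genes above the floor (x axis), with 1 bar for each of 4 comparisons and dotted lines at 2-fold; there are no error bars because each group is 1 array. The KHS101 bars point down for both Notch1 probe sets and up for Hes1, and the retinoic acid and forskolin bar passes 2-fold downward for Jag1 and upward for Hey1.

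Set directly against retinoic acid with forskolin, 4 of the 6 members differed from KHS101 at 5 uM by 2-fold. Jag1 (3.11-fold) and Hes1 (2.04-fold) were higher with KHS101, where 8.94% of all 8606 measured genes were higher, and Hey1 (3.15-fold) and Notch1 (3.04-fold) were lower, where 10.2% of all were. At 1.7 uM Jag1 (3.28-fold) and Hes1 (2.33-fold) were higher (5.93% of all 8588 genes) and 0 members were called lower (5.39% of all). Notch1 lay at the line there, with a log2 difference of -0.99, and Hey1 was at -0.44. Dll1 differed from retinoic acid with forskolin by -0.65 at 5 uM and Hes6 by -0.36. These comparisons share the retinoic acid array.

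The rest of the pathway was read from 53 other genes, of which 42 were named on the array and 27 measured in the KHS101 comparisons. With KHS101 at 5 uM 2 of the 27 were higher and 1 lower, and at 1.7 uM 3 were higher and 0 lower, with median differences of 0.11 and 0.10. With retinoic acid and forskolin 26 were measured and 0 passed 2-fold in either direction, with a median of 0.23. These counts are few, and beside the shares of all genes given above they are not read as a result about the pathway.

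The other receptor and ligand genes on the array (Notch4, Dll4, Jag2, Dlk1 and Dlk2) were below the floor on every array, as were the other target genes (Hes2, Hes3, Hey2, Heyl and Nrarp). Of the canonical receptors and ligands named on the array, Notch1, Dll1 and Jag1 were thus the ones above the floor, and of the HES and HEY genes Hes1, Hes6 and Hey1. The 6 proneural genes read here, which HES repressors are known to silence, were below the floor on all arrays too. The bHLH gene Neurod1 read 3.14 in DMSO and 4.24 at 5 uM, both under the floor.

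Among genes for ligand and receptor handling, Mib2 was higher at both KHS101 concentrations and Dtx4 at the lower. Mib2, a ubiquitin ligase that acts on Notch ligands, read 8.34 in DMSO, 10.37 at 1.7 uM KHS101, 10.62 at 5 uM and 8.63 in the positive control. The KHS101 arrays stood well above the other pair. Mib2 was 4.86-fold higher than in DMSO at 5 uM and 4.09-fold higher at 1.7 uM, and its second probe set differed by 2.56 and 2.36 on the log2 scale. Dtx4, a Deltex family ubiquitin ligase, was 2.03-fold higher at 1.7 uM on 1 probe set, at the line, and its other probe sets were below the floor. Of all measured genes 6.16% were higher at 5 uM and 4.36% at 1.7 uM. The remaining 6 of 8 measured handling genes passed 2-fold in no comparison with DMSO. Among them were the Notch inhibitor Numb, 0.66 above DMSO with retinoic acid and forskolin on the log2 scale, and its relative Numbl, which was 0.60 above DMSO at 5 uM, 0.81 at 1.7 uM and 0.74 in the positive control.

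Of 6 measured protease genes in the KHS101 comparisons, Adam10 was called, at 5 uM, where 8.10% of all genes were lower. Adam10 encodes the enzyme that makes the first cut in a ligand-bound receptor. It read 9.31 in DMSO, 8.77 at 1.7 uM, 8.06 at 5 uM and 9.53 in the positive control. Its arrays were in the order of those of Notch1. It was 2.38-fold lower than in DMSO at 5 uM (log2 difference -1.25), and its second probe set differed by -1.18. Psenen, a small subunit of gamma-secretase, differed from DMSO by -0.76 at 5 uM and by 0.61 in the positive control on the log2 scale, so those arrays were 2.59-fold apart. The complex members Ncstn and Aph1a lay within 0.41 of DMSO on each array.

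Nuclear factors of the pathway were mostly near DMSO. Rbpj, the DNA-binding partner of the receptor domain, read 10.56 in DMSO, 10.51 at 1.7 uM, 10.38 at 5 uM and 10.54 in the positive control, and its 2 other probe sets differed from DMSO by at most -0.54. Its level on these arrays was therefore within 2-fold of DMSO on every probe set. The co-activator genes Maml1 and Maml2 differed from DMSO by 0.62 and -0.69 at 5 uM on the log2 scale.

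Tle1 was the exception among the nuclear factors. It encodes a Groucho co-repressor that HES proteins recruit. It was below the floor in DMSO (3.71) and with retinoic acid and forskolin (2.52), and read 6.10 at 1.7 uM KHS101 and 7.15 at 5 uM. Tle1 was thus at least 4.44-fold higher than in DMSO at 5 uM and at least 2.14-fold higher at 1.7 uM, on 1 probe set, and the step between the concentrations was 2.07-fold. Tle2, Tle3 and Tle4 were within 0.43 of DMSO in all 3 treatments.

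**Figure D3:**
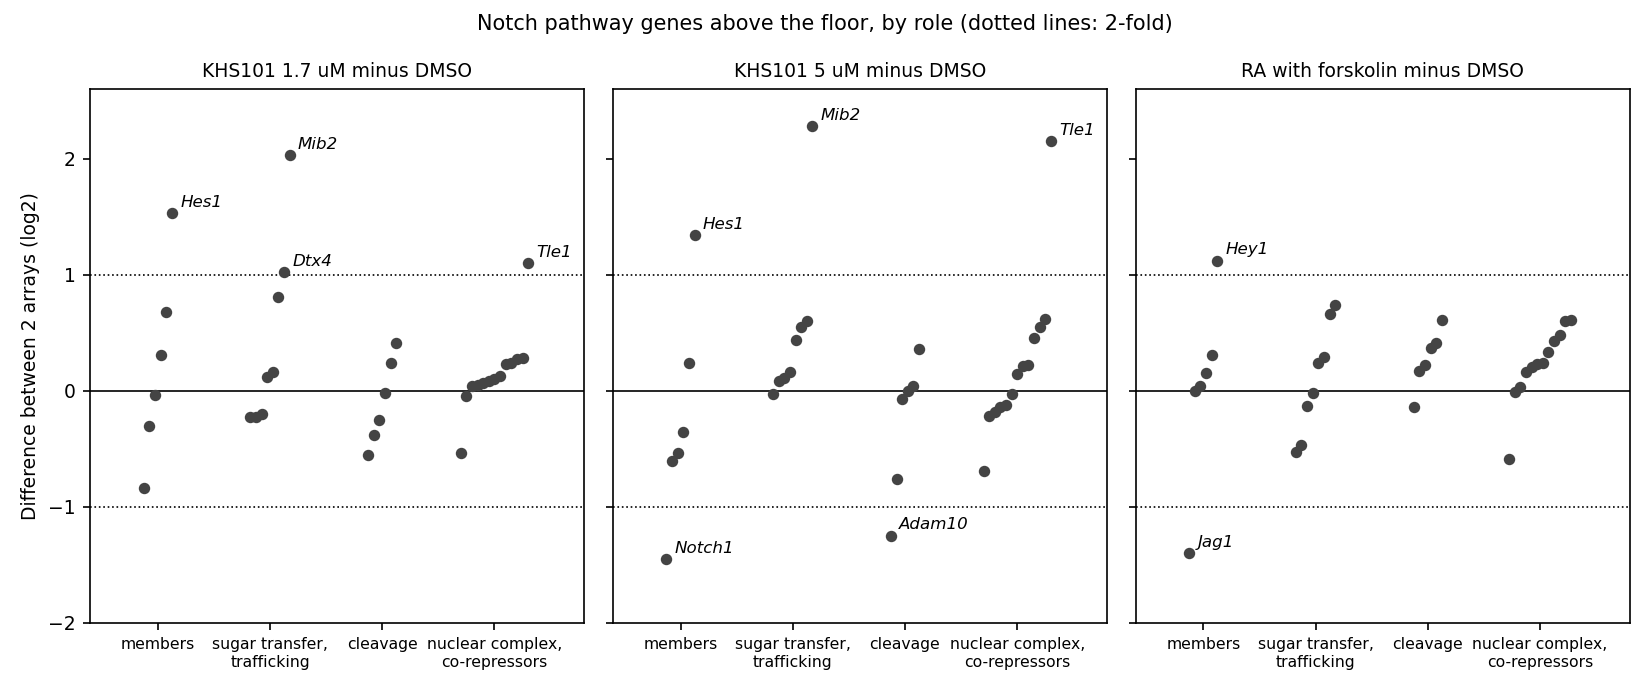
Log2 difference from DMSO (y axis) of each measured Notch pathway gene, 1 point a gene, grouped by role (x axis) in 3 panels for the treatments, with dotted lines at 2-fold and names for genes past them. Hes1, Mib2 and Tle1 lie above the upper line in both KHS101 panels, Notch1 and Adam10 lie below the lower line at 5 uM, and Hey1 and Jag1 are the genes past 2-fold with retinoic acid and forskolin.

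For the 4 members that spanned 2-fold or more over the arrays, the genes with the most similar profile were sought among the 8216 genes above the floor on all 4 arrays, by the Euclidean distance between log2 values after each gene lost its own mean. Nearest to Notch1 were the centrin gene Cetn2 at a distance of 0.0812, Usp20 at 0.0984 and Mgst3 at 0.121. Nearest to Hes1 were Emp1 at 0.119, Edem1, which takes part in degradation of misfolded glycoproteins, at 0.121, and Cd276 at 0.127. Nearest to Jag1 were Odc1, the ornithine decarboxylase of polyamine synthesis, at 0.129, Sinhcaf at 0.172 and Ifrd2 at 0.181. Hey1 had less close neighbours: Akap7 at 0.219, Fggy at 0.253 and Pcdhb9 at 0.277. Each profile has 4 points from the same 4 arrays, so these are descriptions of those arrays.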

How the data were processed

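The authors deposited 1 table of log2 expression values, with 31099 probe sets and 4 Affymetrix arrays; GCRMA and R 2.6.2 are named per the submitters' processing notes, without the step each served, and the log2 scale was read from the values. A genome build is not given in these sources. At equal ranks the 4 columns differed by at most 0.189, so a global shift would not be visible.

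From these values, Python 3.11.15 with pandas 2.3.3 computed differences between arrays; no test was run, since no group has a replicate. The platform annotation gave 20826 probe sets 1 symbol each; 57 controls, 436 with several symbols and 9780 unnamed here were not used. Each gene is represented by its probe set of highest mean, and the floor and threshold are as stated in the report. The calling was run on simulated data with little noise and added shifts that all exceeded 2-fold. Recovery of such shifts was near certain, so that run checks the code only and not the calls given here. Promoter windows are from RefSeq (GRCr8), without coordinates of the arrays. Named genes were all members, pathway genes called against DMSO, Rbpj, and the 3 nearest profiles per member; Numb, Numbl, Psenen, Psen2, Jag2, Ncstn, Aph1a, Maml1, Maml2, the other Tle genes, Neurod1, Kdr and the marker genes were named after their values were seen. The members, lists and settings were chosen with earlier results of these data known. Alternatives were other floors, probe set rules, scaling and thresholds.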

Additional observations from a re-analysis of the deposited data

How the results depend on the processing

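The 7 alternatives were a floor of log2 = 4 or 6, no floor, the median over probe sets, quantile normalization, and calls at 1.5-fold or 3-fold. Of 180 recomputed member differences, 179 kept their side of 2-fold. The other came to pass it: Notch1 in KHS101 1.7 uM minus retinoic acid with forskolin, at -1.01 after quantile normalization. Most of the 180 could not change, so their agreement is no check. Every measured member lay above log2 = 5 on all arrays, so a floor of 4 or no floor returned the same values. A floor of 6 touched only Dll1 at 5 uM, and the median rule could move only Notch1, which has 2 probe sets. The sign changed for 2 differences near 0, both for retinoic acid with forskolin minus DMSO after quantile normalization: Dll1 went from 0.04 to -0.05 and Hes6 from 0 to -0.03. The members' counts of calls moved by over 1.5 times at other thresholds only. At 3-fold they were 0 for all 3 treatments against DMSO and for the KHS101 step, and 1 for KHS101 1.7 uM against retinoic acid with forskolin. At 1.5-fold they were 3 for KHS101 1.7 uM against DMSO and 2 for the step. Against retinoic acid with forskolin, 27 other pathway genes were measured. At 2-fold, KHS101 5 uM had 4 of them higher (8.94% of all genes) and 3 lower (10.2%). KHS101 1.7 uM had 3 higher (5.93%) and 0 lower (5.39%). In the step 1 was higher (0.812%) and 0 lower (1.73%). For the other pathway genes, 1.5-fold gave 7 calls for KHS101 5 uM and 6 for retinoic acid with forskolin against DMSO. It gave 2 for the step, and 8 for KHS101 1.7 uM against retinoic acid with forskolin. There, 3-fold gave 1 call for KHS101 1.7 uM against DMSO, 0 for the step, 2 for KHS101 5 uM and 1 for 1.7 uM against retinoic acid with forskolin. A floor of 6 gave 1 call for KHS101 1.7 uM against DMSO and 1 against retinoic acid with forskolin, because genes near the floor shrink toward it. Without a floor, retinoic acid with forskolin gave 1 call against DMSO, Tle1, whose values both lie below log2 = 5. Shares of all genes were not computed at the alternative settings, so the counts there are not read as results about the members or the pathway. No paired analysis was possible because each group holds 1 array. Dll1, Dtx4 and Tle1 lie near the floor, where signal limits what can be seen.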

Other observations

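Below the floor, a few pathway genes differed between arrays by more than the flat probe sets did. Jag2, a ligand of the Jagged type, read 2.30 in DMSO, 2.53 at 1.7 uM KHS101, 2.72 at 5 uM and 2.31 in the positive control. Psen2, a catalytic subunit of gamma-secretase, read 4.20 in DMSO, 4.35 at 1.7 uM, 4.38 at 5 uM, and 4.95 in the positive control. Neither passed the floor on any array, so these values carry no call.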
